A study of Drosophila melanogaster with 4 samples.

Results

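The Rab genes encode small GTPases that sort membrane traffic, and 35 of the 17490 genes in the deposited table of ovary ribosome pull-downs carry a symbol made of Rab or RabX and a number. Of these 35, 33 are Rab GTPase genes. The other 2, Rab3-GEF and Rab3-GAP, encode regulators of Rab3 that share the prefix, and they are described apart. The rule for members reads the symbol and no measured value.

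A Rab protein is active when it holds GTP and inactive when it holds GDP. A guanine nucleotide exchange factor (GEF) loads it with GTP on a given membrane, a GTPase-activating protein (GAP) ends the active state, and in between the Rab recruits effectors such as tethers, motors and lipid kinases, so that each compartment is marked by its own Rab set. In the fly ovary, Rab-dependent traffic serves yolk uptake by the oocyte, delivery of membrane to growing germ cells, and the secretion of basement membrane and eggshell by the follicle cells that surround the germline.

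The libraries came from ovaries of Drosophila melanogaster females in which translating ribosome affinity purification (TRAP) was used: a GFP-tagged protein of the large ribosomal subunit was expressed in a chosen lineage, and the ribosomes were pulled down with anti-GFP antibodies together with the mRNAs they carried. In the soma group, tj:Gal4 drove UAS RPL10-GFP in the somatic lineage (tj is traffic jam, a transcription factor gene of somatic gonad cells), and in the germline group Nos:Gal4Vp16 drove UAS:RPL10-GFP in germ cells. There were 2 libraries for the soma and 2 for the germline, all 4 were pull-downs, and the labels name no other treatment and no age. Both groups carried the tagged ribosome transgene, and each lineage had its own driver. Lineage, driver and genotype therefore cannot be told apart in any comparison between the groups. Each library pools all stages of the ovary in which its driver was active, and in such bulk samples fewer cells of a type and less RNA per cell cannot be told apart.

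The libraries were of unequal depth. Outside genes named as rRNA, 17013813 and 629199 reads could be recovered from the deposited values of the soma libraries, against 1194623 and 1313996 reads for the germline libraries, so that soma replicate 1 was 27.0 times as deep as soma replicate 2. On 1 kb of exon, 3 reads were worth 0.0699 and 2.43 FPKM (fragments per kilobase of exon, scaled between libraries) in the soma libraries, against 1.02 and 0.827 FPKM in the germline libraries. Markers went with the labels but were not exclusive to either group. All 10 germ cell markers found were lower in both soma libraries, where the median marker stood at 40.2% of its germline level, and their summed level was 239 and 185 FPKM in the soma against 485 and 553 FPKM in the germline. All 9 follicle cell markers found were higher in both soma libraries, with a summed level of 4403 and 4389 FPKM in the soma against 542 and 361 FPKM in the germline, where the median marker stood at 10.3% of its soma level. Most of each sum came from Yp2, at 2487 and 2504 FPKM in the soma against 305 and 211 FPKM in the germline. Each pull-down thus held mRNAs of the other lineage, whose part in a given Rab level was not tested. Of 6 muscle sheath markers none passed limma's test, adjusted or not, and limma-voom called none, with sums of 3.77 and 18.1 FPKM in the soma against 15.4 and 1.84 FPKM in the germline. Neuronal and fat body markers summed to at most 1.49 and 2.41 FPKM in any library. The neuronal marker nSyb, a synaptic vesicle gene, was listed at 0 in all 4. Of the 2 neuronal markers tested, elav was higher in both soma libraries (0.992 and 0.606 FPKM against 0.127 and 0.0257 FPKM in the germline), and cac overlapped between the groups. Neither was called by limma, while limma-voom called 1 neuronal marker higher in the soma. The haemocyte markers He and NimC1 were also listed at 0 in all 4, while srp, which encodes a GATA factor, had 40.9 and 44.4 FPKM in the soma against 1.68 and 3.89 FPKM in the germline.

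Most Rab GTPase mRNAs were detected in the pull-downs of both lineages. Of them, 6, all among the more abundant, were called higher in the soma. Of the 33 genes, 23 were above 0 in all 4 libraries. The summed level of the 33 was 748 and 832 FPKM in the soma libraries, against 377 and 401 FPKM in the germline libraries. The soma mean was 2.03 times the germline mean, and the libraries of the 2 groups did not overlap. This sum rests on the scaling of the deposited values, in which the median gene sat near no change. As a share of all FPKM outside rRNA genes, the same sum was 0.314% and 0.199% in the soma against 0.153% and 0.201% in the germline, values that overlap. Without genes that carry no symbol, the shares were 0.331% and 0.253% in the soma against 0.165% and 0.213% in the germline, and these do not overlap. Of those genes, 1 took 21.0% of the FPKM of soma replicate 2, against 4.81% in soma replicate 1 and 6.91% and 4.86% in the germline. Whether the shares of the groups overlap thus depends on which genes are counted.

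**Figure D1:**
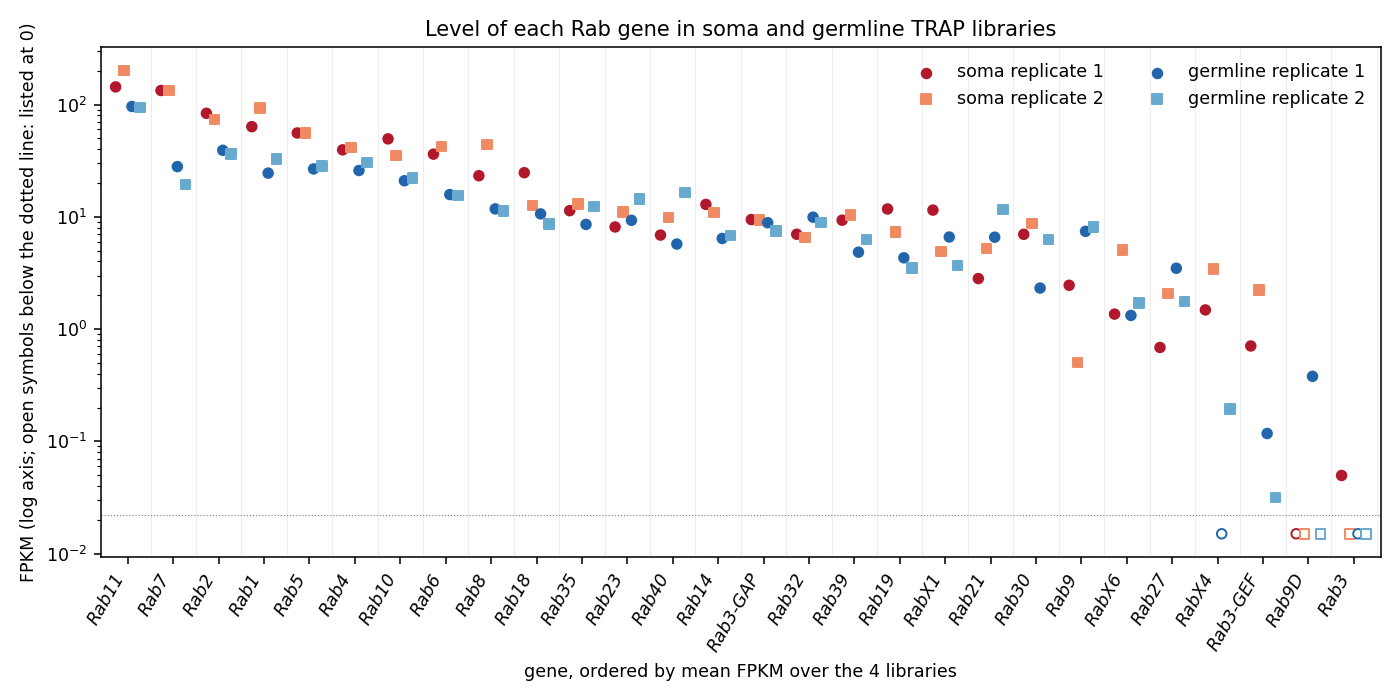
FPKM (log axis) of the 28 Rab members above 0 in at least 1 library, ordered by mean level, with soma replicates in red and orange and germline replicates in dark and light blue; open symbols below the dotted line are listed at 0. The soma points of Rab7, at 133 and 134 FPKM, stand clear of its germline points at 28.0 and 19.5 FPKM, while those of Rab9 lie below its germline points.

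The test was run on the 8823 genes whose mean over the 4 libraries reached 0.1 FPKM, among them 26 of the 35 members and 24 of the 33 GTPase genes. Fold changes are soma over germline on the scale of log2(FPKM + 0.1), with limma's moderated standard error, and a gene is called higher or lower when its adjusted p is under 0.05. Of the whole table tested, 8.64% of genes were called higher in the soma and 3.59% higher in the germline. Of the 24 GTPase genes tested, 6 were called higher in the soma (Rab7, Rab6, Rab1, Rab2, Rab5 and Rab8), 18 were not called, and none was called higher in the germline by limma. In that direction Rab9 alone had an unadjusted p under 0.05, while limma-voom on the recovered reads called 2, Rab9 and Rab21. At an unadjusted p under 0.05, 11 of the 24 were higher in the soma, a rule that 16.8% of all genes met, and 1 was higher in the germline, which held for 11.0% of all genes. The median log2 fold change of the 24 was 0.83, with 18 above 0 and 6 below 0, beside a median of 0.04 over all genes tested. Both soma libraries were above both germline libraries for 15 of the 24 genes (29.6% of all genes tested), and below them for 3 (25.8%).

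The called genes were all well expressed, so the share was also set against genes of like level. The cut, a mean of 10 FPKM over the 4 libraries, was set with these calls known. Among the 3646 genes that averaged 10 FPKM or more, 12.0% were called higher in the soma and 7.24% higher in the germline, and the median log2 fold change was -0.06. The 12 Rab GTPase genes of that level had a median of 0.99, with 11 above 0. The 6 called genes are all among them by the choice of the cut. Neither their share nor the other values of the 12 are therefore a test against all genes of that level. Rab40, with a mean of 9.73 FPKM and a log2 fold change of -0.24, fell just below the cut. For 10 of the 12 both soma libraries were above both germline libraries, which held for 30.0% of all genes of that level. A gene can also reach the cut through a single group. Rab18 did so through its soma mean of 18.7 FPKM, beside a germline mean of 9.61 FPKM. Rab23 did so through its germline mean of 11.8 FPKM, beside a soma mean of 9.60 FPKM. With 2 libraries a group an exact permutation test of a single gene cannot go below p = 0.33, so the calls rest on a spread estimated across all genes. That spread is between libraries that the study calls replicates, and the labels do not say whether they came from separate dissections. Without a trend in eBayes Rab7 was the only member called, and quantile normalization ended the calls of Rab2 (adjusted p = 0.065) and Rab5 (adjusted p = 0.057). With any 1 of the 4 libraries left out, limma called 0 of the members, and between 4 and 11 members had an unadjusted p under 0.05 in the direction of the soma.

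**Figure D2:**
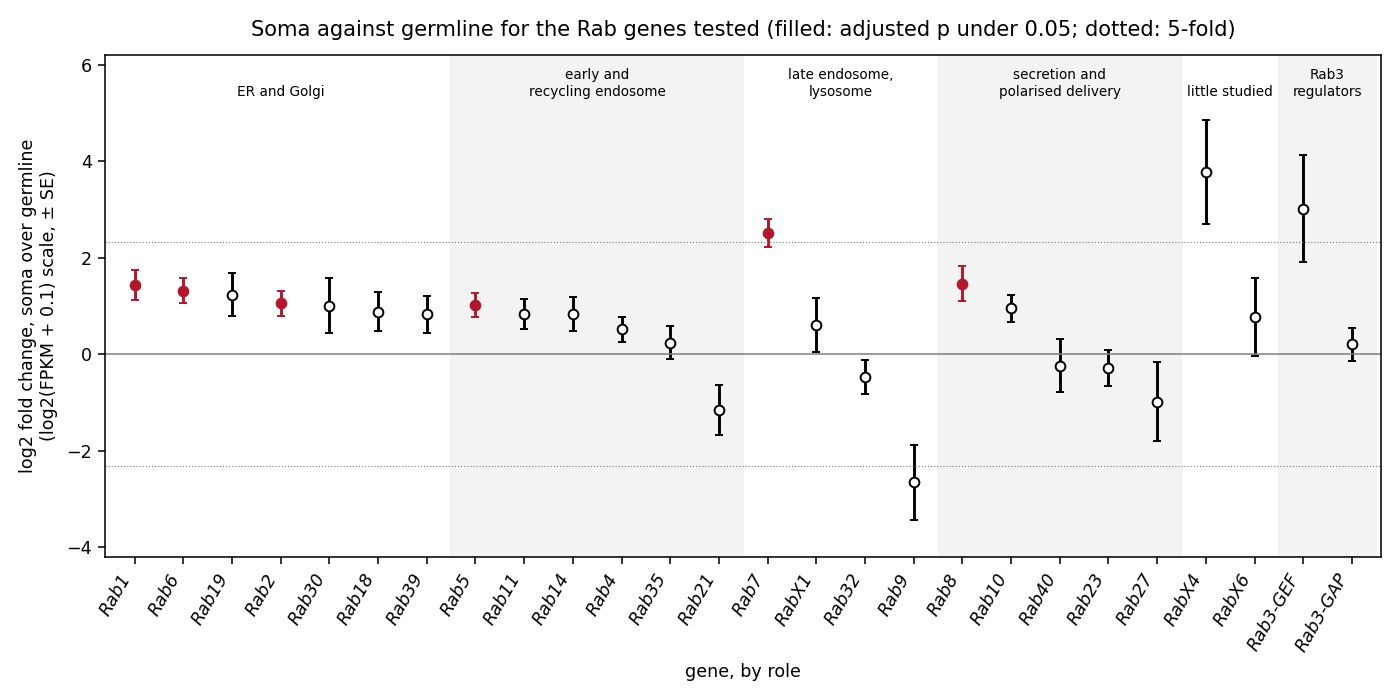
Log2 fold change of soma over germline (± SE, log2(FPKM + 0.1) scale) for the 26 members tested, grouped by the role class assigned to each. Filled points have an adjusted p under 0.05 and dotted lines mark a 5-fold change. All 7 ER and Golgi genes lie above 0, Rab7 is the highest called gene at 2.51, and Rab9 is the lowest at -2.66.

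Rab7 had the largest fold change among the members that averaged 10 FPKM or more. Rab7 marks late endosomes and drives their fusion with lysosomes and autophagosomes, and its gene lies on chromosome 3R (23993008 to 23995452, plus strand, dm6). It had 133 and 134 FPKM in the soma libraries, against 28.0 and 19.5 FPKM in the germline libraries. The soma libraries differed by less than 1 FPKM from each other, and both were at least 4.76 times as high as either germline library. The log2 fold change was 2.51 ± 0.28 (SE, adjusted p = 0.0040), and the ratio of the means was 5.62. Rab7 also met the 5-fold rule of the study (5-fold at an unadjusted p under 0.05), which 9.41% of all genes met in the soma and 1.08% in the germline. These values rested on 9736 and 280 reads in the soma libraries, against 140 and 120 reads in the germline libraries.

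The place of Rab7 among the Rabs also differed between the groups, as a description with no test. Rab7 mRNA made up 17.8% and 16.1% of the summed Rab GTPase FPKM in the soma libraries, where it was second in rank in both, against 7.44% and 4.85% in the germline libraries, where it ranked 3 and 7. Set against Rab5, the early endosomal Rab that precedes it on the endocytic route, Rab7 was 2.39 and 2.39 times as abundant per length in the soma libraries, against 1.05 and 0.690 times in the germline libraries. These within-library ratios do not depend on how the libraries were scaled to each other.

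**Figure D3:**
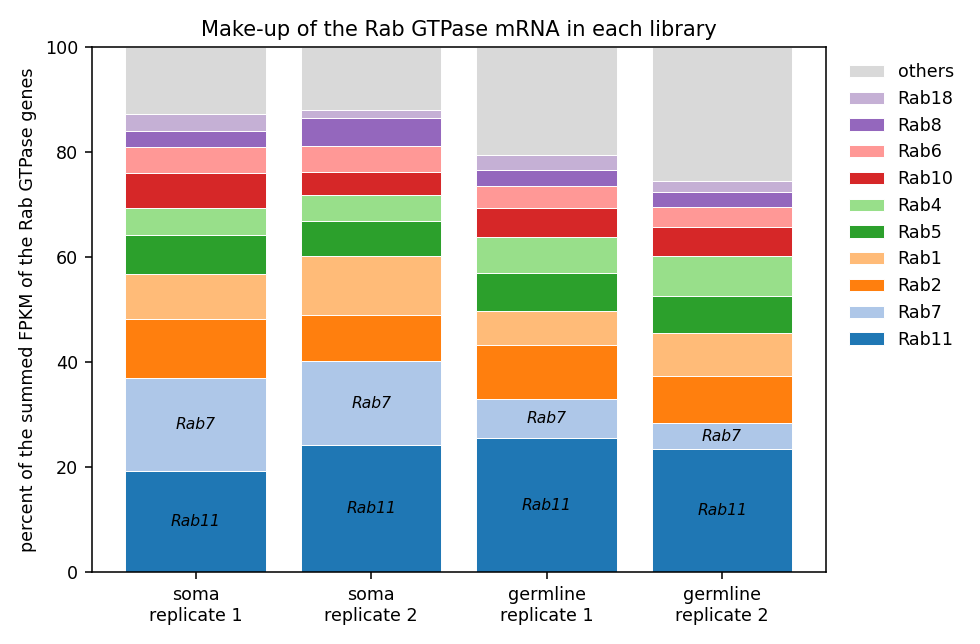
Percent of the summed FPKM of the Rab GTPase genes taken by each of the 10 most abundant and by all others (grey), in soma replicates 1 and 2 and germline replicates 1 and 2. Rab11 is the largest single gene in every library, from 19.2% to 25.5%, and the Rab7 part is wider in the soma libraries (17.8% and 16.1%) than in the germline libraries (7.44% and 4.85%).

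Each Rab was assigned to a single class by role, although some, such as Rab2, also act elsewhere. The Rabs assigned to the ER and Golgi all had fold changes above 0. All 7 were tested, both soma libraries were above both germline libraries for each of the 7, and 3 of them were called higher in the soma, beside 29.6% and 8.64% of all genes tested. Their median log2 fold change was 1.05, and their summed level was 236 and 248 FPKM in the soma against 102 and 109 FPKM in the germline.

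Rab1, which serves transport from the ER to the Golgi, had 63.6 and 93.5 FPKM in the soma libraries, against 24.5 and 32.7 FPKM in the germline libraries. The lower soma library was 1.94 times as high as the higher germline library, and the log2 fold change was 1.44 ± 0.31 (SE, adjusted p = 0.030). The gene lies on chromosome 3R (21266029 to 21269060, minus strand), and an annotated antisense RNA that covers 41.1% of its exon bases was listed at 0 in all 4 libraries.

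Rab2, which acts at the Golgi and in flies also in the delivery of vesicles to lysosomes, had 83.6 and 73.4 FPKM in the soma libraries, against 39.2 and 36.2 FPKM in the germline libraries. Replicates were close to each other in both groups and the groups did not overlap, with a log2 fold change of 1.05 ± 0.25 (SE, adjusted p = 0.042). Its gene is on chromosome 2R (6696739 to 6699469, plus strand).

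Rab6, which acts in traffic at and from the Golgi and recruits the motor adaptor BicD, had 36.2 and 42.3 FPKM in the soma libraries, against 15.8 and 15.4 FPKM in the germline libraries. The germline libraries were nearly equal and both soma libraries were at least 2.29 times as high, with a log2 fold change of 1.32 ± 0.26 (SE, adjusted p = 0.024). Its gene is on chromosome 2L (12107221 to 12109116, minus strand).

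The remaining ER and Golgi members were not called. Rab18, which is linked to lipid droplets and the ER, had 24.7 and 12.7 FPKM in the soma libraries, against 10.6 and 8.61 FPKM in the germline libraries. The soma replicates differed more from each other than the lower of them did from the germline, and the log2 fold change was 0.88 with a 95% interval of -0.08 to 1.84 (adjusted p = 0.21). Rab19, Rab30 and Rab39 had means between 6.07 and 7.71 FPKM, and their log2 fold changes were 1.24, 1.00 and 0.82, with adjusted p-values of 0.13, 0.31 and 0.22.

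Among the Rabs of early and recycling endosomes, 1 of 6 was called, and the median log2 fold change was 0.68. Rab11, which returns cargo from recycling endosomes to the surface and in the oocyte supports polarity and membrane addition, was the most abundant Rab mRNA in every library. It had 144 and 201 FPKM in the soma libraries, against 96.2 and 94.4 FPKM in the germline libraries. Both soma libraries were above the germline libraries, which were nearly equal, and the log2 fold change of 0.83 ± 0.30 was not called by limma (95% interval 0.11 to 1.56, adjusted p = 0.13), while limma-voom on the recovered reads called Rab11 higher in the soma (0.92, adjusted p = 0.035). Rab11 took 19.2% and 24.2% of the summed Rab FPKM in the soma libraries, against 25.5% and 23.5% in the germline libraries, ranges that overlap. Its gene is on chromosome 3R (21111408 to 21116146, plus strand).

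Rab5, which marks early endosomes and is needed for endocytosis, including that of yolk, had 55.8 and 55.9 FPKM in the soma libraries, against 26.7 and 28.2 FPKM in the germline libraries. Replicates were within 2 FPKM of each other in both groups, and the log2 fold change was 1.02 ± 0.25 (SE, adjusted p = 0.043). Its gene is on chromosome 2L (2359142 to 2365273, minus strand).

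Rab4, which serves the fast return of receptors from early endosomes, had 39.5 and 41.3 FPKM in the soma libraries, against 25.9 and 30.6 FPKM in the germline libraries. The groups did not overlap, but the log2 fold change of 0.52 had a 95% interval of -0.09 to 1.13 (adjusted p = 0.25). Of the other 3, Rab14 was higher in both soma libraries (log2 fold change 0.83, adjusted p = 0.18), and Rab35 overlapped between the groups (0.24, adjusted p = 0.68).

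Rab21, named here after its values were seen, was the only member of this class with a fold change below 0. Rab21 acts in the traffic of integrins and, in flies, in the autophagy pathway. It had 2.82 and 5.23 FPKM in the soma libraries, against 6.59 and 11.6 FPKM in the germline libraries. The higher soma library was close to the lower germline library, and the log2 fold change was -1.16 with a 95% interval of -2.39 to 0.07 (adjusted p = 0.20). The soma value of replicate 2 rested on 8 reads.

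The late endosomal and lysosomal Rabs had fold changes on both sides of 0. Of the 4, Rab7 was called higher in the soma, Rab9 and Rab32 were lower in both soma libraries without being called, and RabX1 overlapped between the groups.

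Rab9, which in mammalian cells returns receptors from late endosomes to the Golgi, had 2.45 and 0.506 FPKM in the soma libraries, against 7.43 and 8.08 FPKM in the germline libraries. Both soma libraries were below both germline libraries, and the germline replicates lay close together. The log2 fold change was -2.66 ± 0.78 (SE, adjusted p = 0.075), so Rab9 was not called by limma's adjusted p, although it met the 5-fold rule in the germline direction. With 1 library left out the log2 fold change ran from -3.70 to -1.62, and -1.62 was the value without soma replicate 2, and it was -1.94 with a pseudocount of 1 and -1.77 with limma-voom. The 5-fold rule was not met in these last 3 settings, nor with either germline library left out. The value of soma replicate 2 rested on a single read, with an exact 95% Poisson interval of 0.0128 to 2.82 FPKM. In soma replicate 1 it rested on 169 reads, with an interval of 2.10 to 2.85 FPKM, which lies below the intervals of 5.17 to 10.3 FPKM and 5.94 to 10.7 FPKM in the germline libraries. These intervals cover counting error only. Set against Rab7 within each library, Rab9 was 0.0184 and 0.0038 times as abundant per length in the soma libraries, against 0.265 and 0.415 times in the germline libraries. Its gene is on chromosome 2L (19432574 to 19435841, plus strand).

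Rab32, the product of the eye colour gene lightoid and a factor of pigment granules and other lysosome-related organelles, had 6.99 and 6.56 FPKM in the soma libraries, against 9.92 and 8.92 FPKM in the germline libraries. The groups did not overlap, and the log2 fold change was -0.47 with a 95% interval of -1.32 to 0.38 (adjusted p = 0.45). Rab32 was named after its values were seen.

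Among the Rabs of secretion and polarised delivery, 5 of 7 were tested, 1 was called, and the median log2 fold change was -0.24. Rab8, which delivers vesicles to the surface and in follicle cells takes part in placing basement membrane proteins, had 23.2 and 44.2 FPKM in the soma libraries, against 11.8 and 11.3 FPKM in the germline libraries. The soma replicates were far apart, but the lower was still at least 1.97 times as high as either germline library, and the log2 fold change was 1.46 ± 0.37 (SE, adjusted p = 0.048). This call was just inside the threshold and was lost with a pseudocount of 0.01 (adjusted p = 0.066). The gene is on chromosome 3L (19867488 to 19871078, minus strand).

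Rab10, which directs new basement membrane to the basal side of follicle cells, had 49.5 and 35.1 FPKM in the soma libraries, against 21.0 and 22.1 FPKM in the germline libraries. The groups did not overlap, and the log2 fold change of 0.95 ± 0.29 was not called by limma (95% interval 0.27 to 1.63, adjusted p = 0.080), while limma-voom called Rab10 higher in the soma (0.97, adjusted p = 0.042). Rab23, Rab27 and Rab40 overlapped between the groups, with log2 fold changes of -0.28, -0.98 and -0.24 and adjusted p-values of 0.65, 0.48 and 0.81.

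Rab3 and Rab26, which serve regulated secretion in neurons and gland cells, were at or near 0. Rab3 had 8 reads, or 0.0496 FPKM, in soma replicate 1 and was listed at 0 in the other 3 libraries, where 3 reads would have been worth 0.648 FPKM in soma replicate 2, and 0.272 and 0.220 FPKM in the germline libraries. Rab26 was listed at 0 in all 4.

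The members that are little studied or known from flies alone were mostly not detected. Of 9 such genes, 6 were listed at 0 in all 4 libraries (RabX2, RabX5, Rab9Db, Rab9E, Rab9Fa and Rab9Fb), and Rab9D had a single read in germline replicate 1. The Rab9D, Rab9Db, Rab9E, Rab9Fa and Rab9Fb genes form a family of related copies on the X chromosome, so reads shared between copies could be lost or split in counting, and their values are uncertain.

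RabX4 had 1.48 and 3.44 FPKM in the soma libraries, against 0 and 0.195 FPKM in the germline libraries. Both soma libraries were higher, on 90 and 6 reads in the soma against 0 and 1 read in the germline. The pooled soma rate was 14.3 times the germline rate, with an exact 95% counting interval of 2.50 to 570, which leaves out the spread between libraries. The log2 fold change was 3.78 ± 1.08 (SE, adjusted p = 0.068), so RabX4 met the 5-fold rule and was not called by adjusted p. The value depends on the pseudocount, at 1.60 with a pseudocount of 1 and 5.65 with 0.01, and it ran from 3.004 to 4.56 with a library left out. RabX4 did not meet the rule with a pseudocount of 1 or with limma-voom (3.03, unadjusted p = 0.058). Nor was the rule met with soma replicate 1, soma replicate 2 or germline replicate 1 left out. Of its exon bases, 9.25% are shared with Kaz on the same strand, a gene with 17.4 and 17.9 FPKM in the soma libraries against 13.6 and 11.0 FPKM in the germline libraries, and how reads in the shared stretch were counted is not given in the sources used here. RabX6 overlapped between the groups, with a log2 fold change of 0.77 (adjusted p = 0.57), and it shares 36.2% of its exon bases with Vti1a on the other strand.

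The 2 Rab3 regulators differed from each other in level and in contrast. Rab3-GEF had 0.707 and 2.24 FPKM in the soma libraries, against 0.117 and 0.0317 FPKM in the germline libraries. Both soma libraries were above the germline libraries, at low levels for which no whole reads could be recovered, and the log2 fold change was 3.02 ± 1.11 (SE, adjusted p = 0.13), past the 5-fold rule. It was 1.13 with a pseudocount of 1 and 4.12 with 0.01, and ran from 2.25 to 3.79 with a library left out. Rab3-GEF did not meet the rule with a pseudocount of 1, quantile normalization (1.74) or the replicate block (unadjusted p = 0.051). Nor was the rule met with soma replicate 2, germline replicate 1 or germline replicate 2 left out. With a filter at a mean of 1 FPKM and with limma-voom, Rab3-GEF was not tested. On the other strand, 5.29% of its exon bases are shared with Cyp4s3, which had 26.3 and 23.4 FPKM in the soma libraries against 1.19 and 2.29 FPKM in the germline libraries. Counting by strand is not given in the sources used here, so the reads of the pair cannot be told apart, and the part of Cyp4s3 in the Rab3-GEF values was not tested. Rab3-GAP, a subunit of the complex that acts on Rab3 and in mammalian cells on Rab18, had 9.45 and 9.34 FPKM in the soma libraries, against 8.86 and 7.50 FPKM in the germline libraries (log2 fold change 0.20, 95% interval -0.62 to 1.03, adjusted p = 0.73).

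Across the 24 GTPase genes tested, the order of levels was similar in all libraries. Spearman's rho of their FPKM was 0.913 for the pair of soma libraries, 0.891 for the pair of germline libraries, and 0.767 to 0.877 for a soma library set against a germline library. These correlations run over 24 genes that share libraries and depth, and genes are not replicates. The 10 most abundant GTPase genes took 87.3% and 88.1% of the summed Rab FPKM in the soma libraries, against 79.5% and 74.6% in the germline libraries.

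The genes that load, switch off or read out the Rabs were then taken as a list of 79, of which 78 were found and 76 tested. Of the 76, 4 were called higher in the soma, 1 was called higher in the germline and 71 were not called, beside 8.64% and 3.59% of all genes. With limma-voom, 7 of the list were called higher in the soma and 1 higher in the germline, beside 921 and 653 of the 8517 genes in that fit. The median log2 fold change of the 76 by limma was 0.20, beside 0.83 for the Rab GTPase genes and 0.04 for all genes tested. The list includes Rab3-GEF and Rab3-GAP.

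**Figure D4:**
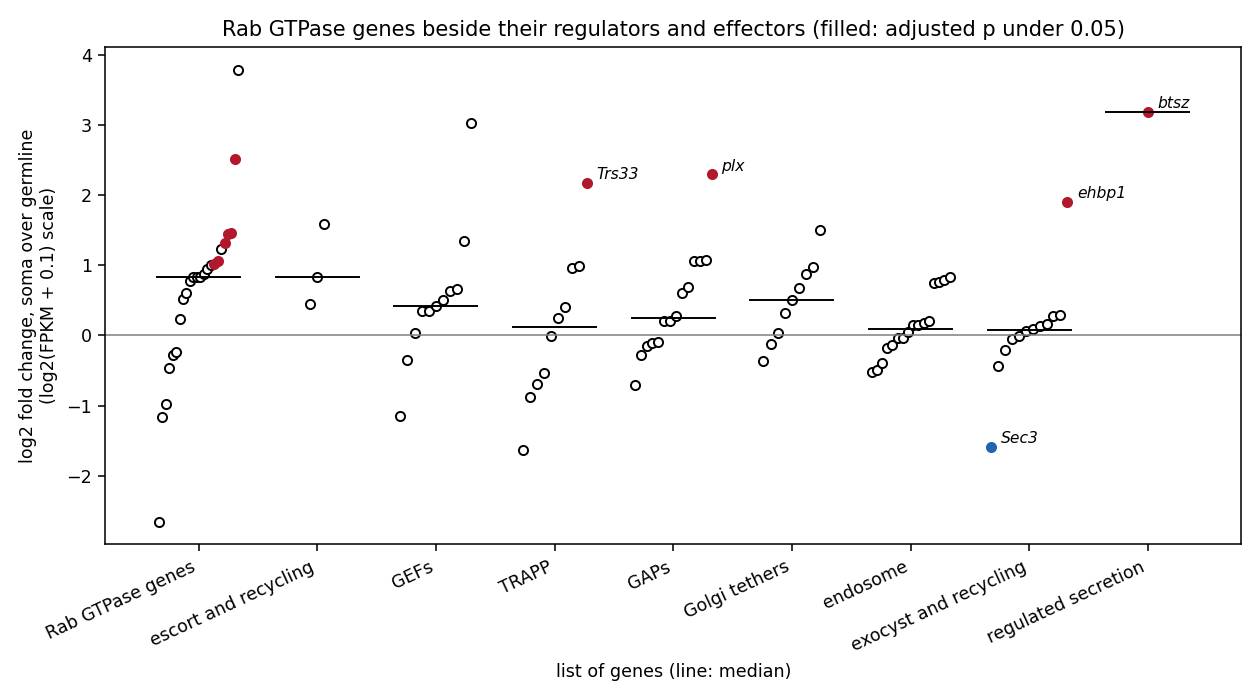
Log2 fold change of soma over germline (log2(FPKM + 0.1) scale) for the Rab GTPase genes tested and for 8 lists of regulators and effectors, with 1 point a gene and a line at each median; filled points have an adjusted p under 0.05. The lists of endosome and of exocyst and recycling effectors sit around 0, with medians of 0.10 and 0.08, against 0.83 for the Rab GTPase genes.

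The genes that keep all Rabs in circulation were detected in the pull-downs of both lineages. None of the 3 was called by limma or limma-voom, with 1 at an unadjusted p under 0.05. Gdi, which extracts Rabs that hold GDP from membranes, had 126 and 163 FPKM in the soma libraries, against 115.1 and 95.3 FPKM in the germline libraries (log2 fold change 0.45, adjusted p = 0.38). betaggt-II, a subunit of the enzyme that attaches the lipid anchor of Rabs, had 8.18 and 7.92 FPKM in the soma libraries, against 2.37 and 2.89 FPKM in the germline libraries (1.58, adjusted p = 0.070).

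Of 11 GEF genes none was called by limma, with 1 at an unadjusted p under 0.05 in each direction, and limma-voom called 1 higher in the soma. Crag, the GEF of Rab10 in follicle cells, had 13.7 and 12.6 FPKM in the soma libraries, against 7.53 and 9.06 FPKM in the germline libraries (log2 fold change 0.67, adjusted p = 0.25). Mon1 and Ccz1, which together load Rab7, had log2 fold changes of 0.41 and 0.50, and neither was called. The gene ca (claret), whose product acts with Rab32 in pigment granules, was lower in both soma libraries, at 6.57 and 3.23 FPKM against 11.4 and 9.50 FPKM in the germline libraries (-1.15, adjusted p = 0.17). Of 10 genes of the TRAPP complexes, which load Rab1 and Rab11, Trs33 was the only one called, with 6.91 and 13.9 FPKM in the soma libraries against 2.33 and 1.89 FPKM in the germline libraries (2.17 ± 0.53, SE, adjusted p = 0.044). The germline values of Trs33 rested on 4 reads in each library, and limma-voom called none of the 10.

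Of 14 GAP genes limma called 1, with 3 at an unadjusted p under 0.05, and limma-voom called 3 higher in the soma. plx (pollux), which encodes a GAP of the TBC family, had 10.2 and 6.13 FPKM in the soma libraries, against 1.78 and 1.33 FPKM in the germline libraries (log2 fold change 2.29 ± 0.55, SE, adjusted p = 0.042). The median of the 14 was 0.24, and their groups overlapped for 7.

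The effectors were called in few cases. The 16 endosome effectors, among them the HOPS tether genes dor, car, lt and Vps39 and the Rab7 effector genes Plekhm1 and Epg5, held no gene called by limma or limma-voom, with 1 at an unadjusted p under 0.05 and log2 fold changes from -0.52 to 0.84. Whether these differ from Rab7 itself was not tested. The 9 Golgi tether genes held no gene called by limma, with 3 at an unadjusted p under 0.05, 1 called by limma-voom and a median of 0.51. Gmap, a golgin gene, had the highest fold change of these, at 10.03 and 15.4 FPKM in the soma libraries against 4.73 and 3.97 FPKM in the germline libraries (1.50, adjusted p = 0.061). Of 12 exocyst and recycling genes, 1 was called in each direction. Ehbp1, whose product works with Rab10 in follicle cells, had 11.4 and 12.8 FPKM in the soma libraries, against 3.04 and 3.28 FPKM in the germline libraries (1.90 ± 0.40, SE, adjusted p = 0.027). Sec3, a subunit of the exocyst, the complex that tethers Rab11 vesicles to the plasma membrane, had 8.39 and 4.70 FPKM in the soma libraries, against 18.4 and 19.96 FPKM in the germline libraries (-1.59 ± 0.39, SE, adjusted p = 0.043). The other 7 exocyst genes were not called, with log2 fold changes from -0.43 to 0.28.

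The list of regulated secretion held the largest fold change among the effectors. btsz (bitesize), a synaptotagmin-like protein gene whose mammalian relatives bind Rab27, had 7.98 and 14.1 FPKM in the soma libraries, against 0.965 and 1.21 FPKM in the germline libraries. The groups lay far apart, with a log2 fold change of 3.18 ± 0.56 (SE, adjusted p = 0.016). Rab27 itself was low, with 0.685 and 2.07 FPKM in the soma libraries against 3.48 and 1.76 FPKM in the germline libraries, which overlap. The other 2 genes of this list, Rim and Rph, effectors of Rab3 at synapses, were near or at 0, with Rim listed at 0 in all 4 libraries and Rph at 0.0466 FPKM in soma replicate 1 only.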

How the data were processed

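TRAP libraries of fly ovaries were measured by RNA sequencing. The authors deposited FPKM of 17490 genes, with a column for each library and with decimal commas, which were read as points. The submitters' processing notes name cutadapt, FastQC, HISAT2, DESeq2 and the dm6 build. The counting tool and annotation are not given in the sources used here, and columns of the authors' own comparison were not used. Whole reads were recovered for 96.6% of the 10518 genes above 0 (tolerance 0.03 reads) with exon lengths from Ensembl release 115 (BDGP6.54), which also gave coordinates. Its annotation held 17216 of the identifiers, and 85 more genes were found by symbol. The constants of the libraries matched median-ratio size factors within 0.258%, so a scaling between libraries is part of the deposited values. rRNA genes took 6.22% and 74.3% of the recovered reads in the soma libraries, against 65.3% and 55.6% in the germline libraries.

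Soma was set against germline with limma 3.58.1 (R 4.3.3; lmFit, eBayes with a trend, no replicate block) on log2(FPKM + 0.1), for the 8823 genes whose mean reached 0.1 FPKM, 2-sided, with Benjamini-Hochberg adjustment over all of them. In a test of the script on simulated data, 100 genes were changed in each direction. Limma found 99 of those raised and 98 of those lowered, and limma-voom found 99 of each. Of unchanged genes, limma called 3 as raised and 0 as lowered, against 9 and 17 for limma-voom. False calls were thus more frequent with limma-voom. Other steps used Python 3.11.15. Values per library are given for members called by either rule, the 10 members with the highest mean, members separated by over 2-fold, and list genes that were called or act with such a member. Others were named after their values were seen. The members and lists were chosen with earlier results of these data known. The settings tried as alternatives were a pseudocount of 1 or of 0.01, no filter on genes above 0, a filter at a mean of 1 FPKM, median-ratio scaling, quantile normalization, eBayes without a trend, a replicate block, each library left out, and limma-voom on the recovered reads.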

Additional observations from a re-analysis of the deposited data

How the results depend on the processing

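Each of the 6 called Rab genes kept its direction under the 13 alternatives. The number of members called higher in the soma was 6 as reported, 4 to 8 in most alternatives, 1 (Rab7) for eBayes without a trend, and 0 with any 1 library left out, when limma assumes that the lone library of a group varies like the other group. Quantile normalization, which did not call Rab2 and Rab5, moved the median of all genes by -0.22, and taking all genes above 0 moved it by 0.12. Members called higher in the germline numbered 0 as reported and 2 with limma-voom, which also added Rab10 and Rab11 in the soma. By the 5-fold rule, 3 members were higher in the soma and 1 in the germline as reported, beside 9.41% and 1.08% of all genes tested. The counts of members were 1 and 0 with a pseudocount of 1 and with limma-voom, and which members met the rule also depended on the library left out. Of the 3, RabX4 and Rab3-GEF had germline means of 0.0974 and 0.0745 FPKM, so they passed the filter of 0.1 FPKM through the soma. Over all genes, eBayes without a trend called 451 higher in the soma and 37 in the germline, limma-voom called 653 in the germline, and leaving out a library gave 0 to 564 in the soma and 0 to 11 in the germline, against 762 and 317 as reported. Of regulators and effectors, 4 were higher in the soma and 1 was higher in the germline as reported, against 2 and 0 with a pseudocount of 0.01 and with all genes above 0, 1 and 0 for eBayes without a trend, 7 in the soma with limma-voom, and 0 and 0 with any library left out. With a library left out, the log2 fold change crossed 0 for 5 genes that were not called: it ranged from -0.025 to 0.50 for Rab35, from -0.59 to 0.028 for Rab23, from -0.99 to 0.52 for Rab40, from -0.0043 to 1.20 for RabX1 and from -0.14 to 1.68 for RabX6, which was also -0.13 with limma-voom. The cause of these changes was not tested. Deviations of same-numbered libraries from their group means had a correlation of -0.066. With 2 libraries a group and such unequal depth, this cannot show whether the replicate numbers pair the samples. A fit with the replicate block called 7 members in the soma, adding RabX4, 1 in the germline (Rab9, adjusted p = 0.014), and 968 and 581 of all genes. Depth limits the low members most: in soma replicate 2 Rab9 rested on 1 read and RabX4 on 6.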
